A study of Mus musculus with 8 samples.

Results

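Described here are 10 genes of the Notch pathway in haematopoietic stem cells (HSCs) of newborn and 4-week-old mice. They are the receptor genes Notch1, Notch2, Notch3 and Notch4, the ligand genes Jag1, Jag2 and Dll4, the nuclear mediator Rbpj, and the target genes Hes1 and Dtx1. The members were chosen by name from the gene identifiers of the tables, as 10 of 22050 genes with a messenger RNA model. That choice was made with earlier results of these data known. Notch4 was listed on 4 contigs under numbered names, and its 4 rows were summed. Of the 10 genes, 9 had enough reads to be tested among 12235 genes, and Dtx1 did not.

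The series profiled messenger RNA of HSCs sorted from marrow of the inbred mouse strain C57BL/6, as cells with CD150 and EPCR on their surface and without CD48 or lineage markers. A group of 4 libraries came from P5 pups, 5 days after birth, and the other group of 4 libraries from mice at 4 weeks of age. No allele, transgene or treatment is named for either group. Each library was made from 100 sorted cells. The labels do not say whether libraries within an age are of different animals, of different litters or of pools, so the tests measure the spread between libraries. HSCs cultured for a day, which the design text mentions, were not analysed here.

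Libraries held between 5775130 and 7470777 exon reads. Of the genes of the sort gate, Slamf1 (CD150) had 33.8 ± 4.69 and 36.6 ± 4.40 CPM (exon reads scaled to library size, as counts-per-million) at P5 and 4 weeks, and Procr (EPCR) 55.0 ± 7.996 and 57.1 ± 8.03 CPM (SD, n = 4 each). Cd48, which the sort selected against, had 1.71 to 10.02 CPM over the 8 libraries. None of these was called different, nor was the stem cell gene Kit, which is not in the gate, and Ly6a (Sca-1), also outside the gate, was lower at P5 (log2 fold change -1.53, SE 0.151, edgeR adjusted p = 1.49e-05). Some libraries stood apart. P5 replicate 2 had 158.1 CPM of the macrophage receptor gene Csf1r, against 3.45 to 7.92 CPM in the others. Cxcl12, a stromal gene, was at 50.4 CPM in 4-week replicate 4 and at most at 0.862 CPM elsewhere. In 4-week replicate 3 the erythroid gene Klf1 was at 10.9 CPM, against at most 0.862 CPM in the others. P5 replicates 1 and 3 had at most 2 reads of Y-linked genes, and the other 6 libraries had at least 1532. Xist, a gene expressed in female cells, had 1329 and 1940 reads in P5 replicates 1 and 3, and at most 6 elsewhere. By these reads P5 replicates 1 and 3 were female, and the other P5 libraries and all 4-week libraries were male.

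Notch receptors are membrane proteins that are cut when a ligand on a neighbouring cell pulls on them. Metalloproteases of the ADAM family cut first, and gamma-secretase then frees the intracellular domain, which enters the nucleus, binds Rbpj and recruits coactivators of the Mastermind family. Without that domain, Rbpj holds corepressors on the same genes. In blood, Notch1 is known for its need in the emergence of embryonic HSCs and in commitment to the T lineage, Notch2 for marginal zone B cells, and Notch3 and Notch4 for roles in the vessel wall. Jagged and Delta-like ligands are often made by niche cells, and a ligand and a receptor in the same cell can also bind each other.

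Promoter sequences of the 5 members that the expression results below turn on most are printed first, as the 250 bases before a start site in RefSeq (GRCm38.p6), read 5′ to 3′ in the direction of transcription. The windows of Rbpj and Jag2 lie inside the gene spans given below, whose 5′ ends are further upstream, so they precede an internal start. Notch1 and Notch2 moved in opposite directions, Jag1 and Jag2 moved with Notch1, and the factor itself is encoded by Rbpj. Capitals mark matches, on either strand, to the core bound by Rbpj, TGGGAA, to the N box of Hes proteins, CACNAG, and to the class C site of Hes and Hey proteins, CACGNG.
Notch1, chr2:26503823-26504072, minus strand: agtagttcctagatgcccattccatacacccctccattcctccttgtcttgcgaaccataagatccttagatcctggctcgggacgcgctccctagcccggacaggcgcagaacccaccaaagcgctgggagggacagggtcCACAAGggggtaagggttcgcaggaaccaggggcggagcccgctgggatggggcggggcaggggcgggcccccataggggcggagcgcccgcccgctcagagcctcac
Notch2, chr3:98013288-98013537, plus strand: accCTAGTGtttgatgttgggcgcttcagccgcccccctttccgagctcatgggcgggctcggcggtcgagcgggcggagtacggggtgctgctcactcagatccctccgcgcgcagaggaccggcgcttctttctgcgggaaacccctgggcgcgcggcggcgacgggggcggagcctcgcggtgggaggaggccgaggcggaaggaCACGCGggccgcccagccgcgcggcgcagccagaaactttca
Jag1, chr2:137116521-137116770, minus strand: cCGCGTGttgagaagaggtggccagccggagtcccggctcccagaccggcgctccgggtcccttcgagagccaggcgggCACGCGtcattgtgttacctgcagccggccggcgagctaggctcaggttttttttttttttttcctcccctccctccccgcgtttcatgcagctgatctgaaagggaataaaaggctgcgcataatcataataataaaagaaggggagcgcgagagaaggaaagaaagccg
Jag2, chr12:112929496-112929745, minus strand: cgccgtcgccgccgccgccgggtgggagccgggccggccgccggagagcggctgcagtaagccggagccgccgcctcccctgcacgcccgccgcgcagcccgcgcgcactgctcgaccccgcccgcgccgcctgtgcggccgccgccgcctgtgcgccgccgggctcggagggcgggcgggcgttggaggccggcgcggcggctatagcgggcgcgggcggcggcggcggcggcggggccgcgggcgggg
Rbpj, chr5:53590096-53590345, plus strand: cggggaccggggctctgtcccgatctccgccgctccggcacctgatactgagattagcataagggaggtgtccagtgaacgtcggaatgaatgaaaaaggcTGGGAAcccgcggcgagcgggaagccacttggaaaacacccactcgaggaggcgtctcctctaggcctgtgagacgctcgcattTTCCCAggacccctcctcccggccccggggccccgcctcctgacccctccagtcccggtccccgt

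The Rbpj core was found in 21.59% of the 32851 promoter windows of that length in the table, the N box in 36.67% and the class C site in 23.51%. Among the 10 windows of the 9 members with an entry, only those of Rbpj held the Rbpj core. Hes1 had no entry, so its promoter was not searched. The Rbpj window above had matches that began 149 and 65 bases before the start, and a second RefSeq start of Rbpj, which shares bases with it, had 1. Notch1 had an N box that began 108 bases before its start. In Notch2 an N box lay at 247 bases and a class C site at 42 bases before the start, and Jag1 had class C sites at 249 and 171 bases. Jag2 had no match in a window of 87.2% G and C, against a median of 52.4% over all windows. These matches describe letters only, and binding was not measured.

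Across the 9 tested members, 4 were higher and 1 was lower at P5 by the quasi-likelihood test of edgeR, with a Benjamini-Hochberg adjusted p under 0.05 over all genes tested. Over all 12235 genes, 16.5% were called in either direction, 7.99% higher and 8.55% lower. The higher members were Notch1, Jag1, Jag2 and Hes1, and the lower member was Notch2. Notch3, Notch4, Dll4 and Rbpj did not pass. An unadjusted p under 0.05 was reached by 6, and DESeq2 and limma-voom each called 5. Those of DESeq2 were the same 5 genes, but limma-voom called Dll4 (adjusted p = 0.0406) and not Hes1 (adjusted p = 0.0734). The median log2 fold change of the 9 was 0.65, and that of all genes tested was -0.0042. Hes1 passed the filter on low counts through its P5 libraries, so that count and median describe the tested genes alone. As the members were chosen with earlier results of these data known, the shares over all genes do not test the list. In 4 of the 9 the CPM values of the ages did not overlap, as in 21.2% of all tested genes. With bulk libraries, more cells that make an RNA and more of it per cell cannot be told apart.

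**Figure D1:**
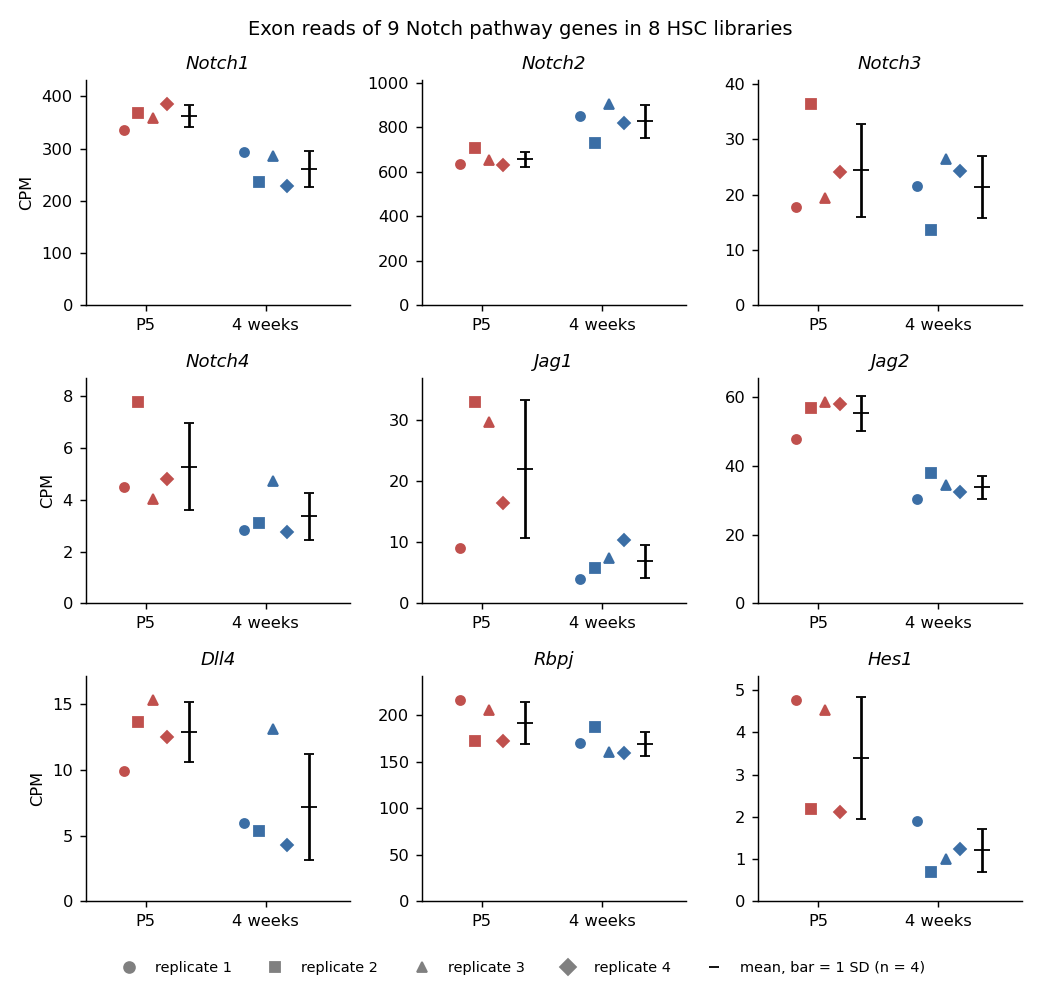
Exon reads (CPM, linear axes from 0) of the 9 members with reads, 1 panel a gene. Each point is a library, its shape gives the replicate number, and the bar beside each group is the mean with 1 SD (n = 4). Values of the ages do not overlap for Notch1, Notch2, Jag2 and Hes1.

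Among the receptors, Notch1 was higher and Notch2 lower at P5. Notch1 (chromosome 2, 26457902 to 26503822) had 334.8, 368.2, 358.8 and 385.4 CPM in P5 replicates 1 to 4, and 294.0, 235.4, 286.6 and 228.8 CPM in 4-week replicates 1 to 4. Every P5 library was above every 4-week library. The means were 361.8 ± 21.1 and 261.2 ± 33.8 CPM (SD, n = 4 each), a log2 fold change of 0.47 (SE 0.0930, 95% interval 0.27 to 0.67, edgeR adjusted p = 0.00359), or 1.39-fold. It rested on 9778 exon reads at P5 and 6582 at 4 weeks. The call held without each library in turn, and was lost when the 3 libraries with high Csf1r, Klf1 or Cxcl12 were left out together (0.45, adjusted p = 0.0542), a setting chosen after seeing the data.

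Notch2 (chromosome 3, 98013538 to 98150367), the receptor with the most reads, had 635.9, 706.7, 655.2 and 633.2 CPM at P5, and 851.5, 730.5, 905.8 and 822.0 CPM at 4 weeks. The highest P5 library, replicate 2, lay just under the lowest 4-week library, also replicate 2, with no overlap. Its means were 657.8 ± 34.1 and 827.4 ± 73.4 CPM (SD, n = 4 each), a log2 fold change of -0.33 (SE 0.080, 95% interval -0.50 to -0.16, edgeR adjusted p = 0.0118). Exon reads numbered 17757 and 20945. The fold change was -0.30 both with Y-linked reads as a covariate (adjusted p = 0.0826) and in the 6 libraries that had such reads (adjusted p = 0.0739), and it was -0.19 when intron reads were added (adjusted p = 0.107). Without the 3 libraries named above it was -0.29 (adjusted p = 0.165). The direction was the same in these fits, and the call was lost in each.

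Notch3 and Notch4 had far fewer reads and were not called. Notch3 (chromosome 17, 32120820 to 32166896) had 17.7, 36.4, 19.4 and 24.1 CPM at P5, and 21.5, 13.6, 26.4 and 24.2 CPM at 4 weeks. The ages overlapped throughout, with P5 replicate 2 highest and 4-week replicate 2 lowest. Its log2 fold change was 0.18 (95% interval -0.34 to 0.70, edgeR adjusted p = 0.665), and -0.073 (adjusted p = 0.857) without P5 replicate 2. Notch4 (chromosome 17, 34564286 to 34588543) had 4.50, 7.77, 4.04 and 4.79 CPM at P5, and 2.84, 3.10, 4.71 and 2.77 CPM at 4 weeks. Its P5 values lay above all 4-week values but that of replicate 3. The log2 fold change was 0.65 (95% interval -0.088 to 1.39, edgeR adjusted p = 0.225). Its 142 and 84 exon reads were all listed as mapped to more than 1 place, since the gene stands on 4 contigs.

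P5 replicate 2, the library with the highest Notch3, Notch4 and Jag1, was also the library with high Csf1r. Of the 8 macrophage markers, all but Vcam1 were highest there. C1qb had 29.1 CPM there and at most 2.63 CPM elsewhere, and Adgre1 had 15.9 CPM there and at most 3.46 CPM elsewhere. The summed list ran from 179.2 to 450.7 CPM at P5 and from 167.7 to 196.0 CPM at 4 weeks, with Lyz2 the most abundant gene. The part of these cells in the Notch3 and Notch4 values was not tested.

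Per kb of exon, which allows genes to be compared, the receptor pool was mostly Notch2 and Notch1 at both ages. Their ratio, Notch1 over Notch2, was 0.583, 0.577, 0.606 and 0.674 in the P5 libraries, and 0.382, 0.357, 0.350 and 0.308 in the 4-week libraries. All P5 ratios were above all 4-week ratios, and the means were 0.610 ± 0.0444 and 0.349 ± 0.0307 (SD, n = 4 each). Notch1 made up 36.5 ± 1.75% of the summed receptor level at P5 and 25.1 ± 1.73% at 4 weeks, and Notch2 59.9 ± 1.59% and 72.0 ± 1.48%. Meanwhile the sum over the 4 receptor genes overlapped, at 104.6 ± 5.44 and 109.5 ± 10.6 CPM per kb. Ratio and shares follow from the fold changes above and were not tested separately.

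**Figure D2:**
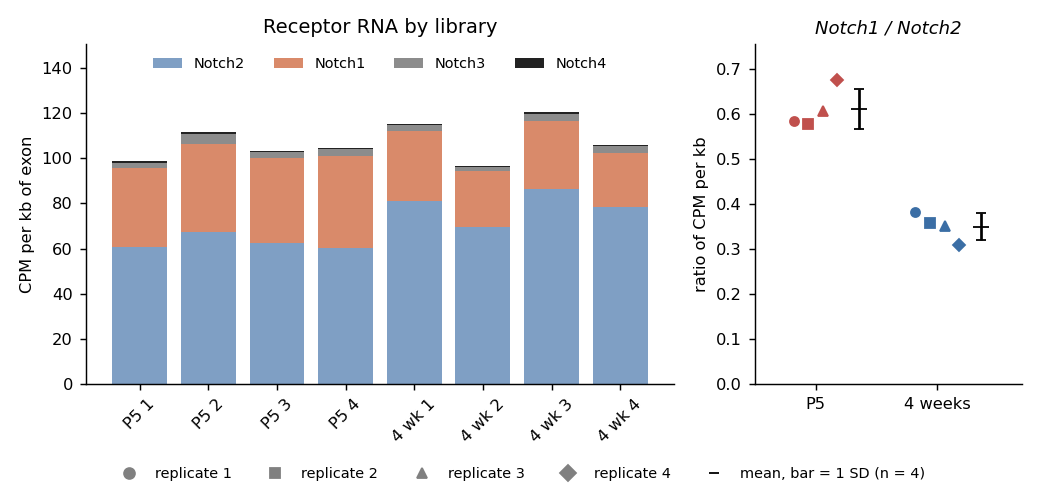
Left, stacked bars of the exon level of the 4 receptor genes (CPM per kb of exon, linear axis from 0) in each of the 8 libraries. Right, the ratio of Notch1 to Notch2 per kb in each library, with the mean and 1 SD (n = 4). The bars reach 98.7 to 111.8 at P5 and 96.5 to 120.5 at 4 weeks, while the P5 ratios (0.577 to 0.674) all lie above the 4-week ratios (0.308 to 0.382).

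All 3 ligand genes had a positive fold change, and Jag1 and Jag2 passed the test. Jag2 (chromosome 12, 112907803 to 112929812) had 47.7, 56.6, 58.5 and 58.0 CPM at P5, and 30.2, 37.9, 34.3 and 32.3 CPM at 4 weeks. Its P5 libraries all lay above its 4-week libraries, with little spread inside either age. Means were 55.2 ± 5.05 and 33.7 ± 3.30 CPM (SD, n = 4 each), and the log2 fold change was 0.71 (SE 0.117, 95% interval 0.46 to 0.97, edgeR adjusted p = 0.000985), or 1.64-fold. It had the smallest p of the members, from 1487 and 848 exon reads, all uniquely mapped. Jag2 was called in all 22 alternatives, with log2 fold changes from 0.66 to 0.79 and adjusted p from 1.85e-06 to 0.0285.

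Jag1 (chromosome 2, 137081451 to 137116520) changed more, from a lower level and with more spread. It had 9.00, 33.0, 29.7 and 16.4 CPM at P5, and 3.95, 5.86, 7.40 and 10.4 CPM at 4 weeks. P5 replicates 2, 3 and 4 were above all 4-week libraries, but P5 replicate 1 lay below 4-week replicate 4. The means of 22.0 ± 11.3 and 6.90 ± 2.72 CPM (SD, n = 4 each) gave a log2 fold change of 1.66 (SE 0.381, 95% interval 0.83 to 2.48, edgeR adjusted p = 0.00875), or 3.15-fold, from 578 and 178 exon reads. With each library left out in turn it was 1.39 to 1.93 and stayed called. Without the 3 libraries with high Csf1r, Klf1 or Cxcl12, Jag1 had 1.91 (adjusted p = 0.0244) and Jag2 0.69 (adjusted p = 0.0285).

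Jag1 and Dll4 are also genes of endothelium, and endothelial markers were read beside them. Cdh5, which encodes the endothelial adhesion protein VE-cadherin, had 5.73, 19.4, 11.0 and 7.05 CPM at P5, and 0, 0, 0.168 and 0 CPM at 4 weeks, where it had 1 read in all. The P5 libraries stood in the same order for Cdh5 as for Jag1, with replicate 2 highest, then 3, 4 and 1, but other endothelial markers had other orders. Cldn5, a tight junction gene also called higher at P5, had 10.1, 8.08, 2.26 and 2.40 CPM there, highest in replicate 1, where Jag1 was lowest. All 14 endothelial markers were found, 12 were tested and 4 were higher at P5, against 7.99% of all genes tested. Besides Cdh5 and Cldn5 these were Tek and Egfl7, both also expressed by HSCs. Whether the Cdh5 and Cldn5 reads came from HSCs or from endothelial cells was not tested. Cdh5 and Cldn5 passed the filter on low counts through their P5 libraries, so these counts describe the tested genes alone. Of the 12, 9 had a positive and 3 a negative fold change. The summed level of the 14 was 1314 to 1476 CPM at P5 and 1122 to 1257 CPM at 4 weeks. Eng was the most abundant (means 361.6 and 404.1 CPM), and neither it nor Vwf (269.3 and 301.6 CPM) was called. Flt1 and Plvap were at most at 2.05 CPM in any library and had too few reads to be tested. Flt1 had 36 reads at P5 and 2 at 4 weeks, and Plvap 38 and 8. The part of endothelial cells in the Jag1 values was not tested.

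Dll4 (chromosome 2, 119325784 to 119335666) had 9.95, 13.7, 15.4 and 12.5 CPM at P5, and 6.00, 5.34, 13.1 and 4.29 CPM at 4 weeks. A single library, 4-week replicate 3, made the ages overlap. Means were 12.9 ± 2.27 and 7.19 ± 4.02 CPM (SD, n = 4 each), with a log2 fold change of 0.85 (SE 0.315, 95% interval 0.17 to 1.52) that missed the threshold (edgeR adjusted p = 0.0866). Without 4-week replicate 3 the log2 fold change was 1.30 and passed (adjusted p = 0.00508), and limma-voom called it with all libraries (0.97, adjusted p = 0.0406). It also passed without the 3 libraries named above (1.15, adjusted p = 0.0458). 4-week replicate 3 also held most Klf1 reads, and their part in its Dll4 value was not tested. Exon reads numbered 345 and 178.

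Summed per kb, the 3 ligand genes reached 12.9, 17.7, 18.3 and 16.2 CPM per kb at P5 and 7.91, 9.37, 11.1 and 8.36 CPM per kb at 4 weeks. All P5 sums were above all 4-week sums (16.3 ± 2.43 and 9.18 ± 1.40, SD, n = 4 each). Jag2 made up most of the sum at both ages, 66.0 ± 5.05% and 71.6 ± 8.01%. Jag1 held 11.1 ± 4.59% at P5 and 6.48 ± 2.82% at 4 weeks. Dll4 held 22.9 ± 0.963% and 22.0 ± 8.83%. All 3 shares overlapped between the ages.

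**Figure D3:**
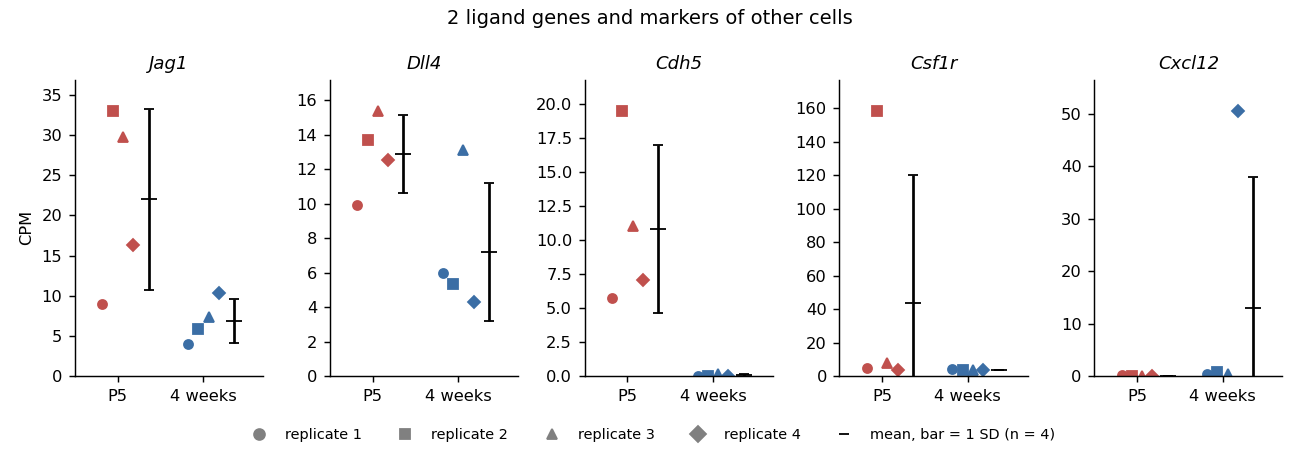
CPM (linear axes from 0) of the ligand genes Jag1 and Dll4 beside the endothelial gene Cdh5, the macrophage gene Csf1r and the stromal gene Cxcl12, by library, with the mean and 1 SD (n = 4; bars that would pass below 0 end at the axis). Cdh5 has reads in all 4 P5 libraries and nearly none at 4 weeks, while Csf1r and Cxcl12 are each high in a single library, P5 replicate 2 (158.1 CPM) and 4-week replicate 4 (50.4 CPM).

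In the nucleus, Rbpj, the factor that all 4 receptors act through, did not pass the test. Rbpj (chromosome 5, 53555779 to 53657445) had 216.6, 172.4, 205.6 and 172.9 CPM at P5, and 170.6, 187.5, 161.0 and 159.2 CPM at 4 weeks. P5 replicates 1 and 3 were the highest, and the other P5 libraries lay inside the 4-week range. The log2 fold change was 0.18 (SE 0.0935, 95% interval -0.023 to 0.38, edgeR adjusted p = 0.222). P5 replicates 1 and 3 were also those without Y-linked reads, and the fold change was 0.026 both with such reads as a covariate (adjusted p = 0.915) and in the 6 libraries that had them (adjusted p = 0.911). Only 45.5% of its exon reads were uniquely mapped, so reads of near copies could be counted here, and with unique reads alone it was not called either.

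Hes1 (chromosome 16, 30065357 to 30067796) encodes a transcriptional repressor and is a classic Notch target. It had 35, 14, 28 and 15 exon reads at P5 and 12, 4, 6 and 9 at 4 weeks. Scaled, these were 4.77, 2.18, 4.53 and 2.12 CPM at P5, and 1.90, 0.689, 1.01 and 1.25 CPM at 4 weeks. The ages did not overlap, though P5 replicates 2 and 4 were only just above 4-week replicate 1. With means of 3.40 ± 1.45 and 1.21 ± 0.511 CPM (SD, n = 4 each), the log2 fold change was 1.47 (SE 0.471, 95% interval 0.45 to 2.48), or 2.76-fold, and the edgeR adjusted p of 0.0492 was close to the threshold. The call was lost in 16 of 20 alternatives and, of the settings that leave out a library, it held only without P5 replicate 2 (adjusted p = 0.0415, other libraries 0.0506 to 0.136). P5 replicates 1 and 3, the higher P5 libraries, were those without Y-linked reads. Among the 6 libraries with such reads the log2 fold change was 0.81 (adjusted p = 0.478), and without the 3 libraries with high Csf1r, Klf1 or Cxcl12 it was 1.53 (adjusted p = 0.206).

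Dtx1 (chromosome 5, 120680203 to 120711867), which encodes a Deltex ubiquitin ligase and is a Notch target in T cell precursors, had no exon read in any library. A count of 0 allows up to 0.111 CPM at P5 and 0.119 CPM at 4 weeks (3 reads over each group, counting error only). A few reads fell in its introns, 2, 5, 0 and 5 at P5 and 2, 3, 2 and 14 at 4 weeks. Dtx1 messenger RNA was therefore not detectable at this depth. T cell markers were low as well: Cd3e and Cd3g had no read, and the 7 of 8 markers found summed to 37.4 to 51.8 CPM at P5 and 23.6 to 35.3 CPM at 4 weeks. Lck was the most abundant over all libraries (13.6 ± 3.42 and 13.3 ± 3.03 CPM, SD, n = 4 each), and Cd4 was higher at P5 (15.6 ± 3.87 and 6.09 ± 1.30 CPM, log2 fold change 1.35, edgeR adjusted p = 0.00178).

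Ordered by level per kb of exon at P5, the members ran from Notch2 (62.6 ± 3.24 CPM per kb, SD, n = 4) through Notch1 (38.1 ± 2.22), Rbpj (24.8 ± 2.93) and Jag2 (10.7 ± 0.975) to Dll4 (3.73 ± 0.657), Notch3 (3.07 ± 1.06), Hes1 (1.97 ± 0.838), Jag1 (1.88 ± 0.961) and Notch4 (0.798 ± 0.256). On all exon reads the first 4 stood apart from their neighbours in every P5 library, and from Dll4 down each gene overlapped the next. At 4 weeks the order was Notch2 (78.8 ± 6.98), Notch1 (27.5 ± 3.57), Rbpj (21.9 ± 1.68), Jag2 (6.50 ± 0.636), Notch3 (2.70 ± 0.704), Dll4 (2.08 ± 1.16), Hes1 (0.700 ± 0.296), Jag1 (0.589 ± 0.232) and Notch4 (0.508 ± 0.138). Only Dll4 and Notch3 changed places between the ages, and their values overlapped at both. Notch1 and Rbpj also overlapped at 4 weeks, as did Hes1, Jag1 and Notch4. The place of Rbpj above Jag2 counts reads mapped to more than 1 place. Only 45.5% of the Rbpj exon reads were uniquely mapped, against all of those of Jag2. The order on unique reads alone was not examined.

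Intron reads gave another readout of the same genes, and made up 60.1 to 68.7% of the reads of genes with an mRNA model, by library. They are often taken to come from unspliced transcripts, but their origin was not tested. Overlap of member introns with other genes was not examined. Of 8 members tested on intron reads, 2 were called, against 17.9% of the 13180 genes tested. Notch1 had 104.0, 129.6, 86.7 and 143.7 intron CPM (intron reads scaled to all intron reads) at P5, and 61.6, 57.9, 53.3 and 43.6 at 4 weeks. The ages did not overlap, and the log2 fold change was 1.13 (2.18-fold, edgeR adjusted p = 0.000758), more than in exons. Jag2 had 18.2, 22.8, 25.5 and 22.3 at P5, and 15.6, 16.6, 12.5 and 11.4 at 4 weeks, again with no overlap. Its log2 fold change was 0.69 (1.61-fold, edgeR adjusted p = 0.0159), close to that of its exons.

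For the other members the intron values did not pass. Jag1 had an intron log2 fold change of 1.16 (edgeR adjusted p = 0.115) and Notch4 0.73 (adjusted p = 0.109), each with the sign of its exons. Notch2, lower in exons, had -0.088 in introns (adjusted p = 0.513), from 23301 and 25843 intron reads, and its ages overlapped there. Values for Notch3 (-0.27, adjusted p = 0.372), Dll4 (0.11, adjusted p = 0.893) and Rbpj (0.048, adjusted p = 0.75) were likewise not called. Hes1 and Dtx1 had too few intron reads to test. The difference between exon and intron fold changes was not tested.

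**Figure D4:**
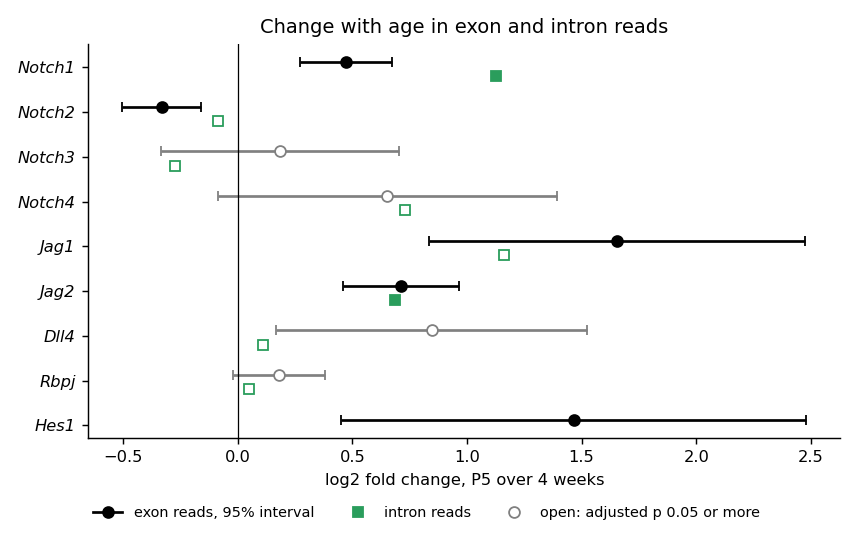
Log2 fold change, P5 over 4 weeks, of the 9 tested members. Circles are exon reads with their 95% interval, squares are intron reads, filled symbols have an edgeR adjusted p under 0.05 and open symbols do not; Hes1 has no square because its introns were not tested. Notch1 and Jag2 are filled for both kinds of read.

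Exon reads of some members can include reads of other genes, because the library kit does not mark strand. In GENCODE, exons of other genes covered 7.66% and 2.97% of the Notch1 exon bases (0610009E02Rik and Gm13568), 5.02% of those of Notch2 (Gm42820), 6.03% of Notch3 (Gm17276, antisense) and 5.56% of Dll4 (Gm14207). None overlapped the exons of Jag1, Jag2, Rbpj or Hes1. Uniquely mapped reads were 98.65% of the exon reads of Notch1, 98.8% of those of Jag1, all of those of Notch2 and Jag2, and 77.7% of those of Notch3.

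The authors' deposited table holds their own test of the ages. In the authors' deposited table the corrected p was 3.11e-05 for Jag2, 0.00159 for Jag1, 0.00338 for Notch1 and 0.0133 for Hes1, all under 0.05. In the same deposited table of the authors, Notch2 had 0.0502, Dll4 0.159, the Notch4 copies 0.435 to 1, and Notch3, Rbpj and Dtx1 1.

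Profiles most like that of Jag2 over the 8 libraries were those of Specc1, Acy1 and Phtf2. The root mean square difference of their centred log2 CPM from that of Jag2 was 0.0773, 0.0935 and 0.109, and the median over 12234 genes was 0.439. Their mean levels at P5 and 4 weeks were 68.1 and 44.6 CPM for Specc1, 18.5 and 11.4 CPM for Acy1, and 137.6 and 82.1 CPM for Phtf2. This likeness is a description of profiles with no test.

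The rest of the pathway was read from a list of 71 further genes in 8 roles, of which 60 were tested, 12 were higher and 5 lower at P5. Their median log2 fold change was 0.0993. Over all genes tested 16.5% were called, 7.99% higher and 8.55% lower. The list was assembled with earlier results of these data known. The CPM values did not overlap in 23 of the 60, and in 21.2% of all genes tested. Among other ligands only Dlk1, a non-canonical ligand that lacks the motif for receptor activation, was tested, and it was higher (38.5 ± 18.1 and 1.81 ± 2.00 CPM, SD, n = 4 each; log2 fold change 4.42, SE 0.495, edgeR adjusted p = 4.51e-05). Its level in 4-week replicate 3 was 4.71 CPM, against 0.474 to 1.52 CPM in the other 4-week libraries, and without that library the log2 fold change was 5.43 (adjusted p = 1.96e-05). Dlk1 passed the filter on low counts through its P5 libraries, so the counts and median of the 60 describe the tested genes alone. Dll1 and Dll3 had 1 read each at P5, and 17 and 3 at 4 weeks. Of the 4 ubiquitin ligases that act on ligands, 2 were lower. These were Mib2 (51.7 ± 9.92 and 85.6 ± 3.81 CPM, -0.73, SE 0.125, edgeR adjusted p = 0.00143) and Neurl1b (27.9 ± 9.52 and 58.6 ± 11.97 CPM, -1.07, SE 0.229, edgeR adjusted p = 0.0059). With uniquely mapped reads Neurl1b had -0.45 (adjusted p = 0.597). None of the 5 glycosylation genes, which tune which ligand a receptor binds, was called by edgeR, DESeq2 or limma-voom, and none had an unadjusted p under 0.05. Rfng, a Fringe enzyme, had the smallest p (-0.26, SE 0.129, adjusted p = 0.198).

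Of the 10 genes of receptor cleavage 3 were higher at P5. Among them were Ncstn, a gamma-secretase subunit gene (0.43, SE 0.0958, edgeR adjusted p = 0.00698), and Adam10, the main protease of the first cut (356.3 ± 20.4 and 288.6 ± 18.3 CPM, 0.30, adjusted p = 0.0131). Adam10 lost its call in 6 of 22 alternatives, among them the Y-linked covariate (0.23, adjusted p = 0.125) and exon plus intron reads (0.14, adjusted p = 0.259). Ncstn lost it with intron reads alone (0.27, adjusted p = 0.197) and without the 3 libraries with high Csf1r, Klf1 or Cxcl12 (0.35, adjusted p = 0.134). Of 8 genes of receptor trafficking and turnover, Dtx3l, another Deltex family gene, was lower (-0.29, SE 0.0731, adjusted p = 0.0156), and its call was lost without P5 replicate 3 (adjusted p = 0.0523) or 4-week replicate 4 (0.0615).

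Among the nuclear partners, none of 8 coactivator genes was called by edgeR, DESeq2 or limma-voom, and 1 had an unadjusted p under 0.05. That was Maml2, a Mastermind gene (147.0 ± 11.9 and 121.5 ± 23.5 CPM, 0.27, SE 0.126, adjusted p = 0.163), whose intron reads were called higher (0.76, adjusted p = 0.000756). Of 14 corepressor genes 4 were higher: Tle3, a Groucho family gene (146.2 ± 4.41 and 106.7 ± 13.8 CPM, 0.45, SE 0.0943, adjusted p = 0.00481), Ctbp2 (0.31, adjusted p = 0.0315), the Rbpj partner L3mbtl3 (0.42, adjusted p = 0.0371) and the deacetylase gene Hdac1 (0.24, adjusted p = 0.0376). Over all genes tested, 16.5% were called in either direction and 7.99% higher. Tle3 stayed called without each library in turn. Ctbp2 lost its call without P5 replicate 3 or 4 or 4-week replicate 1, 3 or 4 (adjusted p from 0.0754 to 0.0923). L3mbtl3 lost it without P5 replicate 1, 2 or 3 or 4-week replicate 2, 3 or 4 (0.0522 to 0.0899), and Hdac1 without P5 replicate 2, 3 or 4 or 4-week replicate 1, 3 or 4 (0.0573 to 0.112).

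Of 17 other target genes 10 were tested, 4 were higher and 2 lower, so the list did not move in a single direction. The shares over all genes tested were 7.99% higher and 8.55% lower. Nrarp, a feedback inhibitor of Notch signalling, had 11.9, 11.3, 13.9 and 10.9 CPM at P5, and 7.27, 6.55, 6.56 and 8.17 CPM at 4 weeks. Its ages did not overlap, and its log2 fold change was 0.74 (SE 0.200, edgeR adjusted p = 0.0216). Without P5 replicate 3 (adjusted p = 0.068) or 4-week replicate 3 (0.0545) it was not called, nor with Y-linked reads as a covariate (0.63, adjusted p = 0.137). The cell cycle genes Ccnd1, for cyclin D1 (83.9 ± 19.99 and 39.5 ± 5.33 CPM, 1.09, adjusted p = 0.000355), and Cdkn1a, for the inhibitor p21 (9.00 ± 1.499 and 3.08 ± 1.23 CPM, 1.56, adjusted p = 0.00398), were higher, as was Tcf7, a T cell factor gene (5.31 ± 1.10 and 1.95 ± 0.478 CPM, 1.44, adjusted p = 0.0123). Without the 3 libraries with high Csf1r, Klf1 or Cxcl12, Tcf7 (1.19, adjusted p = 0.181) and Cdkn1a (1.20, adjusted p = 0.0933) lost their calls, as did Cdkn1a with uniquely mapped reads (1.89, adjusted p = 0.0782) and Ccnd1 and Tcf7 with intron reads alone (adjusted p = 0.0566 and 0.102).

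Lower at P5 were Myc (89.3 ± 20.4 and 139.5 ± 17.9 CPM, SD, n = 4 each, -0.64, SE 0.146, edgeR adjusted p = 0.00804), a regulator of cell growth, and Gata3 (-0.63, SE 0.199, adjusted p = 0.0446), a transcription factor gene of the T lineage. Myc had -0.36 (adjusted p = 0.156) without the 3 libraries with high Csf1r, Klf1 or Cxcl12, and -0.64 when only the 6 libraries that had Y-linked reads were fitted (adjusted p = 0.0605), so its call was lost in both. Gata3 overlapped between the ages and lost its call without P5 replicate 3 or 4 or 4-week replicate 1, 3 or 4 (adjusted p from 0.0877 to 0.137). Hes5, which also encodes a Hes repressor, had 9.98 ± 1.66 and 9.13 ± 2.21 CPM (0.12, adjusted p = 0.772), and its ages overlapped. Hes7, Hey1, Hey2 and Heyl were not tested, with at most 13 reads in either group, and Bcl11b and Il2ra had no read in any library. The members chosen as targets and this list were assembled with earlier results of these data known.

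**Figure D5:**
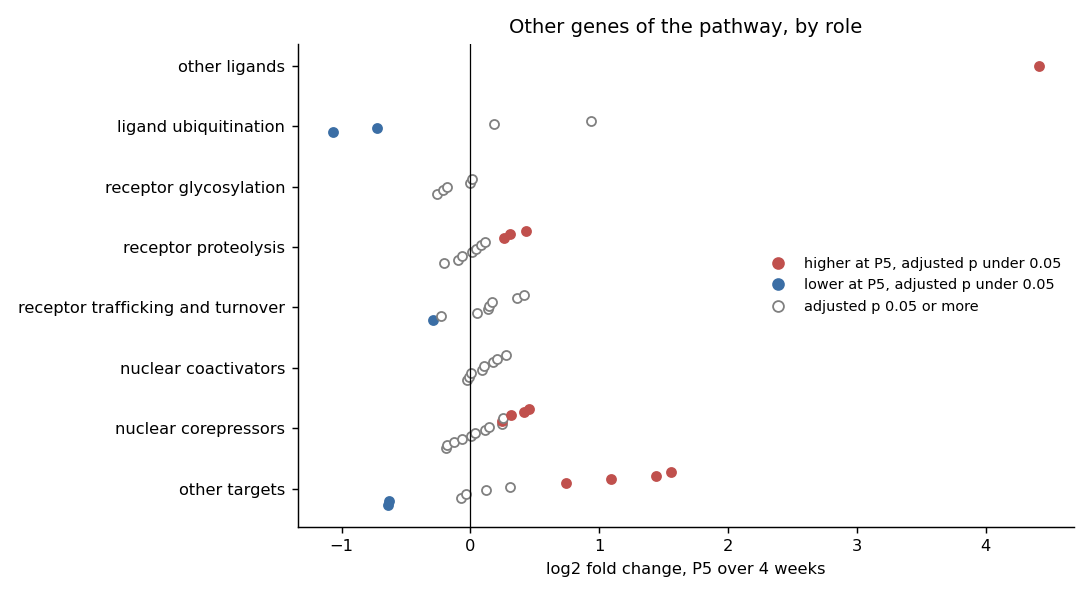
Log2 fold change, P5 over 4 weeks, of the 60 tested genes of the pathway that are not members, by role. Red points were called higher at P5, blue points lower (edgeR adjusted p under 0.05), and open points were not called; Dlk1 lies far to the right at 4.42, and targets are found on both sides of 0.

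Markers of the remaining cell types were read in the same libraries, and their part in the member values was not tested. Erythroid markers, most abundantly Hbb-bt, summed to 583.8 to 921.0 CPM at P5 and 94.6 to 137.6 CPM at 4 weeks, and Alas2 had no read. Megakaryocyte markers summed to 67.9 to 91.4 CPM at P5 and 149.6 to 232.0 CPM at 4 weeks. Of these Itgb3, the most abundant over all libraries, was lower at P5 (log2 fold change -2.98, adjusted p = 1.68e-06) and Gp9 was higher (1.32, adjusted p = 0.00153). B cell markers, most abundantly Cd79b, summed to 34.1 to 51.7 CPM at P5 and 20.9 to 26.1 CPM at 4 weeks, and Pax5 and Ms4a1 had no read. Sums of neutrophil markers, most abundantly Prtn3, were 27.0 to 46.3 and 27.8 to 36.2 CPM, with no Ctsg read. Genes within this list went both ways. S100a8 (called lower, edgeR adjusted p = 0.000699) and S100a9 (not tested) had no read at P5, and 64 and 59 reads at 4 weeks. Mpo (5.62 and 1.46 CPM, adjusted p = 0.011) and Ltf (3.14 and 0.666 CPM, adjusted p = 0.028) were higher at P5. Each of these called genes passed the filter on low counts through the age where it was higher. Stromal markers summed to 12.6 to 32.6 and 12.4 to 90.3 CPM, the highest with the Cxcl12 of 4-week replicate 4. Col1a2 was the most abundant over all libraries, and Lum had no read.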

How the data were processed

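Messenger RNA was measured in 8 libraries of sorted HSCs, grouped by the age and numbered by the replicate in the labels. Per the labels' protocols, cDNA of 100 cells was made into Nextera XT libraries, which do not mark strand. The authors deposited raw counts of exon, intron and junction reads for 48835 gene rows in each library, with p-values of their own test and its corrected p-values in the file of P5 replicate 1, called EDGE per the file headers. Reads had been mapped to mm10, as named in the submitters' processing notes. For the aligner, the counter and the gene models, the names were not given in the sources used here.

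Total exon reads of the 23457 rows with an mRNA model were used. Numbered copies of 969 genes were summed, which leaves 22050 genes and departs from the counts as deposited. In P5 replicate 4, 24 gene names read as dates and were replaced by the names on the same rows of the other files, where all positions were the same. The exon length in the deposited tables gave values per kb. All 8 libraries were fitted with edgeR 4.0.16 in R 4.3.3 (TMM scaling, filterByExpr, quasi-likelihood test, age alone), and p-values were adjusted by Benjamini-Hochberg over the 12235 genes that passed, to which 99.82% of exon reads belonged. Their common biological coefficient of variation was 0.152. The threshold was 0.05, and CPM used effective library sizes. Approximate SEs came from the F statistic, and intervals are 95%. The pipeline was tested on simulated data. A floor of 3 counts was used for genes without reads, and as the reads carry no molecular identifiers it covers counting error only. No 2 libraries of an age agreed within sampling noise (chi-square per degree of freedom 4.3 to 13.8).

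The members and gene lists were chosen with earlier results of these data known. The naming rule took every member, up to 4 called genes of each pathway role by smallest p (or the gene with the smallest p where none was called), the most abundant and the undetected genes of each marker list, and the 3 genes nearest to the called member with the smallest p. Slamf1, Procr, Ly6a, Csf1r, Klf1, Cxcl12, Cdh5 and other markers, and Hes5, Dll1, Dll3 and the Hey genes, were named outside it, after their values were seen. Some genes that the rule would name are not reported here. Positions and promoters come from RefSeq (GRCm38.p6). The alternatives tried were a block for the replicate number, leaving out each library, testing all genes with a read or those with 5 CPM or more in 4 or more libraries, size factors of DESeq2, library totals, DESeq2 1.42.0, voom of limma 3.58.1, copies not summed, unique, intron or exon plus intron reads, and Y-linked reads (over 100 reads) as a covariate or as a choice of libraries. Python 3.11.15 with pandas 2.3.3, numpy 2.4.6 and scipy 1.17.1 was used, and matplotlib 3.10.9 drew the figures.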

Additional observations from a re-analysis of the deposited data

Results flagged for a closer look

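Over 52 groups of 4 libraries that were examined (members, named pathway genes and the like), 2 held a library whose gap to its nearest neighbour took up most of the range of the group, and chance alone flags about 1 in 20. Notch4 in 4-week replicate 3 had 4.71 CPM, against 2.77 to 3.10 CPM in the other 4-week libraries. Ccnd1 in P5 replicate 4 had 113.6 CPM, against 71.3 to 76.9 CPM in the other P5 libraries.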

How the results depend on the processing

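Members called higher numbered 3 or 4 in all alternatives except intron reads alone, which gave 2. These were not always the same genes. Without the 3 libraries with high Csf1r, Klf1 or Cxcl12 they were Jag1, Jag2 and Dll4, and limma-voom called Dll4 in place of Hes1. Notch2, the member called lower, was lost and the count was 0 with the replicate block (log2 fold change -0.33, adjusted p = 0.0711), exon plus intron reads, intron reads alone, the Y-linked covariate, only libraries with Y-linked reads, and the 3 libraries with macrophage, erythroid or stromal reads left out, the last an alternative chosen after seeing the data. Other pathway genes called higher, 12 in the fit reported, numbered 6 with the replicate block, 6 with the Y-linked covariate, 6 in libraries with Y-linked reads, 5 with intron reads, 3 without the 3 libraries, and 7 to 11 with each library left out in turn. Those called lower, 5 as reported, numbered 3 with the block, 3 with the covariate, 2 in libraries with Y-linked reads, 2 without the 3 libraries, and 3 to 5 with each library left out. Over all genes, 977 higher calls became 577 with the block, 628 with the covariate, 619 in libraries with Y-linked reads and 459 without the 3 libraries, and 1046 lower calls became 608, 638 and 531 in the last 3 of these. Replicate numbers did not pair the samples: same-numbered libraries of the ages had correlations of -0.236 to -0.0309, and none correlated best with its own number. Notch3 ran from -0.073 (without P5 replicate 2) to 0.31 with each library left out, and changed sign with exon plus intron reads (-0.11) and with intron reads (-0.27), and Rfng with intron reads (0.024). The cause of these changes was not tested. Depth limits Hes1 most among the tested members, with 31 reads at 4 weeks, and Dtx1 is known only to lie under its floor. Whether the libraries of an age come from separate animals is not stated.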
